A study of Mus musculus with 4 samples.

Results

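The genes described here encode 9 chaperones and oxidoreductases that fold glycoproteins in the endoplasmic reticulum (ER), among them those that prepare the surface proteins of sperm. They were taken by gene symbol from the 50763 genes of the count table: Clgn, Calr3 and Pdilt, which are testis forms, and Canx, Calr, Pdia3, Pdia4, Pdia6 and P4hb, the somatic forms found in most cells. Polyadenylated RNA was sequenced from pachytene spermatocytes purified from mouse testis, in 2 libraries of wild-type (WT) genotype and 2 of Hsf5 knockdown genotype. Hsf5 encodes a testis heat shock factor, a DNA-binding protein, and the study asks how gene expression in pachytene cells changes when it is knocked down. Replicates are labelled as biological, but the animals, their strain and age, how the knockdown was made and how the cells were purified are not stated in the labels. The p-values therefore reflect only the spread among these 4 libraries.

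New glycoproteins in the ER are bound through their sugars by 2 lectin chaperones, the membrane-bound calnexin (Canx) and the soluble calreticulin (Calr), while protein disulfide isomerases form and rearrange their disulfide bonds. Male germ cells add a set of their own: calmegin (Clgn) is a relative of calnexin, calreticulin 3 (Calr3) of calreticulin, and Pdilt of the protein disulfide isomerases. Mice without any one of these 3 testis forms make sperm that lack mature ADAM3 at their surface, and such sperm fail to enter the oviduct and bind the egg coat poorly. Calmegin is also needed to pair ADAM1 and ADAM2 proteins.

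The counts assigned to genes summed to between 33287428 and 42479164 per library. Values are CPM, each gene's counts relative to the library's total after TMM scaling between libraries, and changes are log2 fold changes of knockdown against WT from edgeR's quasi-likelihood test, with p adjusted over all 23594 genes tested and a threshold of 0.05. Of those genes 27.4% were higher and 33.5% lower in the knockdown libraries. Hsf5 itself was at 586 and 449 CPM in WT and at 287 and 238 CPM in the knockdown, a log2 fold change of -0.98 (SE 0.31, adjusted p = 0.0217), a call lost with library totals as the only scaling (adjusted p = 0.116) and without WT replicate 1 (0.223) or 2 (0.0658). Marker lists of other cells moved with the groups. All 12 Sertoli cell markers were higher, with summed levels of 161 and 403 CPM in WT and 3610 and 4271 CPM in the knockdown, as were all 8 Leydig cell markers (114 and 771 CPM, then 1361 and 2719 CPM). The same held for 9 of 12 spermatogonial markers (182 and 167 CPM, then 890 and 774 CPM) and 6 of 7 macrophage markers (10.2 and 11.1 CPM, then 153 and 50.7 CPM). For the 5 testable myoid markers 3 were higher and 1 lower, and 3 of 6 endothelial markers were higher, with sums no higher than 97.6 CPM in any library. Pachytene markers were lower in 10 of 11 cases (12436 and 11828 CPM, then 2541 and 1947 CPM), and all 12 round spermatid markers were lower, from 3195 and 1590 CPM to 43.3 and 26.9 CPM, with no count of the protamine gene Prm2 in the knockdown. Several of these spermatid markers, Prm2 among them, passed the low-count filter through their WT counts alone and could only come out lower. The part of these other cells in the results below was not tested. In bulk RNA, fewer cells of a type and less RNA per cell cannot be told apart.

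The members divided by form. All 3 testis forms fell in the knockdown, and 4 of the 6 somatic forms (Calr, Pdia4, Pdia6 and P4hb) rose while none fell. The 4 became 2, Pdia4 and P4hb, without WT replicate 2 or with scaling on genes of the synaptonemal complex and of cohesin (meiotic-gene scaling). Over all 9 members 4 were higher and 3 lower, where 27.4% of all genes tested were higher and 33.5% lower. The difference from these shares was not tested. All 9 passed the low-count filter, Pdilt through its WT counts alone. For 8 of the 9 both knockdown libraries lay outside the WT range, a property shared by 82.7% of all genes tested.

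**Figure D1:**
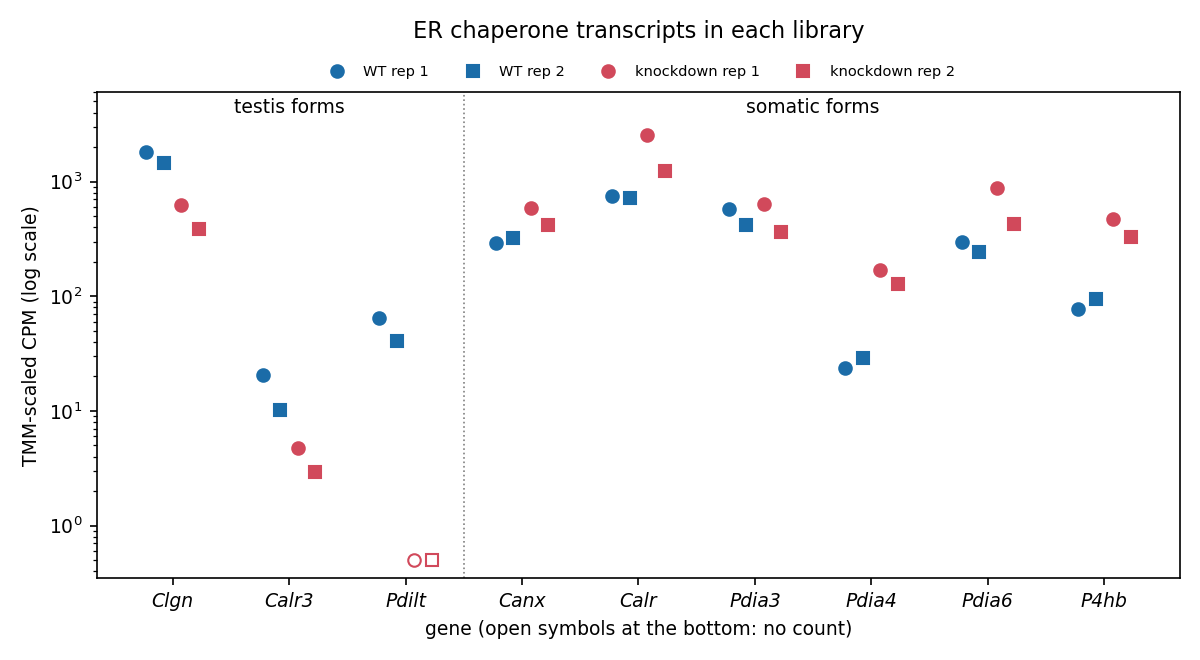
TMM-scaled CPM (log axis) of each member in the 4 libraries, with 1 symbol per library and open symbols at the bottom for no count. The 3 testis forms lie lower in both knockdown libraries, with Pdilt at 0, and every somatic form but Pdia3 lies higher in both.

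To show what lies upstream of the members, the 200 bases before the transcript start are given for the 4 that rose (Calr, Pdia6, Pdia4 and P4hb), for Canx, which did not pass the test but holds the element described here, and for the testis forms Calr3 (the first of its 2 listed starts) and Pdilt. They are RefSeq promoter entries on GRCm38.p6, while the counts were made on a later build, and are written 5′ to 3′ on the gene's strand. Windows from 250 bases before to 50 after the start were matched by symbol for 8 of the 9 members, all but Clgn. Capitals mark both ends of an ER stress response element, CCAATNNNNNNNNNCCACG, the site through which unfolded proteins in the ER are known to raise chaperone genes.
Calr, chr8:84846932-84847131, minus strand: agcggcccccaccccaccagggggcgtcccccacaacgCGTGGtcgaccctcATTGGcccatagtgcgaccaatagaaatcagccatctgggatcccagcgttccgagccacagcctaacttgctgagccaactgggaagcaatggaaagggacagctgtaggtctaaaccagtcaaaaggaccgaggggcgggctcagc
Canx, chr11:50325674-50325873, minus strand: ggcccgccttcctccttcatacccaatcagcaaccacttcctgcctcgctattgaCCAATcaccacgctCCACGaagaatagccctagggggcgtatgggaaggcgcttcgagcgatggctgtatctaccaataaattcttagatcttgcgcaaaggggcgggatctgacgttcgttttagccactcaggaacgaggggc
Pdia6, chr12:17266389-17266588, plus strand: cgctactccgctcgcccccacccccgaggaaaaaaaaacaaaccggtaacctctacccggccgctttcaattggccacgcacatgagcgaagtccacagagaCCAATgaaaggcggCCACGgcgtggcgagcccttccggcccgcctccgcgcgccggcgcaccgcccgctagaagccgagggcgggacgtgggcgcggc
Pdia4, chr6:47813513-47813712, minus strand: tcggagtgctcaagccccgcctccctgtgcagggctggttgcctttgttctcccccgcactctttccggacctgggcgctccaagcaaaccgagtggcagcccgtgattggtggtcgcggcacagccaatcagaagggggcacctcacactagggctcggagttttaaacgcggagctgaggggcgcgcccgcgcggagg
P4hb, chr11:120573254-120573453, minus strand: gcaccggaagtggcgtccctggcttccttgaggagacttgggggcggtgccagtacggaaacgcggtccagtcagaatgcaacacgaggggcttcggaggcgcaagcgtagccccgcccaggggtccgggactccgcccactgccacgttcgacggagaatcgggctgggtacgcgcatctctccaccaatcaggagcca
Calr3, chr8:72443779-72443978, minus strand: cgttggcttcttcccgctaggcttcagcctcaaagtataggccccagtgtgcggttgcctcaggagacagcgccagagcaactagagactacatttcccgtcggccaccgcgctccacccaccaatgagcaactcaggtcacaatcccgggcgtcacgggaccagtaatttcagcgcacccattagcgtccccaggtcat
Pdilt, chr7:119523483-119523682, minus strand: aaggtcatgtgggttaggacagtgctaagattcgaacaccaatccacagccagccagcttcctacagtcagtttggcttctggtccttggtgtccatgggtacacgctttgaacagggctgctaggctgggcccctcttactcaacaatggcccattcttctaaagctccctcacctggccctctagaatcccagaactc

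The element matched exactly in 3 of the 9 member windows, those of Calr (on the minus strand of the gene, from position -162), Canx (from -145) and Pdia6 (from -98), and in 0.119% of the 32851 windows of all genes. The windows of Calr3 and Pdilt did not hold it, and neither did those of Pdia3, Pdia4 and P4hb. Its first end alone, CCAAT, stood in all 9 member windows and in 37.4% of all windows, and its other end, CCACG, in 5 and in 32.8%. Matches were counted on both strands, and those of the ends include the whole element. Heat shock elements were searched as GAANNTTC and as TTCNNGAA, which 7.86% and 8.52% of all windows hold, and the cAMP response element as TGACGTCA (1.79%). None of these occurred in a member window. Sites for MYB factors, searched as CAACTG or TAACTG or CAACGG or TAACGG, matched in Calr and Pdia3 and in 28.3% of all windows. These are matches of letters, not measured binding.

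Among the testis forms, Clgn was the most abundant member in WT. It stood at 1808 and 1467 CPM in WT and at 620.03 and 385 CPM in the knockdown. The groups did not overlap, and both WT libraries lay far above both knockdown libraries. Clgn fell by 1.70 on the log2 scale (SE 0.37, adjusted p = 0.00347), 3.26-fold, and the call held in all 11 alternative settings, with changes from -2.36 to -1.28.

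Calr3, the testis calreticulin, was a low transcript throughout. It had 20.7 and 10.3 CPM in WT and 4.78 and 2.91 CPM in the knockdown. The groups did not overlap, but the WT libraries also differed widely from each other. The log2 fold change was -2.01 (SE 0.52, adjusted p = 0.00814), a call lost without knockdown replicate 2 (adjusted p = 0.0609, the largest over the 11 alternatives, whose smallest was 5.55e-05).

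Pdilt, a testis disulfide isomerase relative, was the only member lost altogether. It had 64.5 and 40.9 CPM in WT, or 3345 counts, and no count in either knockdown library. With a floor of 3 counts over the knockdown group its level was at least 1583-fold lower. The edgeR test gave an adjusted p of 9.6e-06. A gene kept through its WT counts alone could only come out lower, so this p-value adds no separate support. The bound was 738-fold without knockdown replicate 1 and 845-fold without replicate 2, since it scales with the depth that is left. In GENCODE M21, on the older build, 201 bases of its exons lie opposite exons of Gm37518 and 104 opposite Acsm5, and with the strand setting of the counting not given, reads there cannot be assigned. All 3 testis forms were lower in WT replicate 2 than in replicate 1, with log2 ratios of -0.30 for Clgn, -0.98 for Calr3 and -0.65 for Pdilt. The summed round spermatid markers were lower there too (1590 against 3195 CPM), and the part of spermatids in the testis forms' levels was not tested.

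Of the somatic lectins, Calr rose and Canx did not pass the test. Calr, the soluble lectin and calcium store of the ER, was at 751 and 721 CPM in WT and at 2566 and 1242 CPM in the knockdown. Both knockdown libraries were higher than both WT libraries, but they differed from each other by more than the lower one differed from WT. Its log2 fold change was 1.37 (SE 0.41, adjusted p = 0.0167), and it was 0.82 without knockdown replicate 1. The call was lost without WT replicate 1 (adjusted p = 0.0646) or replicate 2 (0.108) and with meiotic-gene scaling (0.102), over alternatives from 1.67e-05 to 0.108. Canx, the membrane-bound lectin, was at 292 and 320.4 CPM in WT and at 586 and 416 CPM in the knockdown. The groups did not overlap, yet the log2 fold change of 0.71 (SE 0.32) had an adjusted p of 0.0765. It passed as higher with library totals only (1.14, adjusted p = 0.00804), without the low-count filter (0.0469), with the replicate number as a block (0.0254) and without knockdown replicate 2 (0.0148), over alternatives from 0.00804 to 0.874.

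The largest rises were those of isomerases that were scarce in WT. Pdia4, an isomerase with an additional thioredoxin domain, went from 23.6 and 28.8 CPM to 170.2 and 129 CPM, a log2 fold change of 2.51 (SE 0.31, adjusted p = 0.000198). P4hb, the founding protein disulfide isomerase, which is also the beta subunit of prolyl 4-hydroxylase, went from 77.0 and 94.1 CPM to 475 and 328 CPM, or 2.23 (SE 0.33, adjusted p = 0.00046). For both genes the knockdown libraries lay well above both WT libraries, and both calls held in all 11 alternatives. Pdia6 went from 298 and 242 CPM to 889 and 424 CPM, or 1.28 (SE 0.39, adjusted p = 0.0187). The Pdia6 call was lost without WT replicate 2 (adjusted p = 0.117), without knockdown replicate 1 (0.0614, with a change of 0.72) and with meiotic-gene scaling (0.193), over alternatives from 0.000159 to 0.193.

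Pdia3, the isomerase that works with calnexin and calreticulin, was the somatic member whose groups overlapped. Its 573 and 420.4 CPM in WT compared with 633 and 365 CPM in the knockdown, where the knockdown libraries held both the highest and the lowest value. The log2 fold change was 0.01 (SE 0.36, adjusted p = 0.987), and its sign turned with the setting, from -0.66 to 0.43. Pdia3 shares 18 exonic bases with Catsper2 and Pdia6 shares 50 with Atp6v1c2, in each case on opposite strands. Pdia4 shares 14 with Mir704 on the same strand.

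The knockdown replicates differed from each other in the same direction for every member. All 8 members with a count there were higher in knockdown replicate 1 than in replicate 2, with log2 ratios of replicate 2 to replicate 1 between -0.40 (Pdia4) and -1.07 (Pdia6), against a median of 0 over all genes tested. Genes without a count in either knockdown library enter that median as 0. Of the ER lists described below, the oligosaccharyltransferase list had a median of -0.64 and the ER HSP70 and HSP90 list -0.49. The other medians were -0.26 (isomerases), -0.17 (stress response) and 0.04 (calnexin cycle). Summed Sertoli, Leydig and endothelial markers were higher in knockdown replicate 2. Summed spermatogonial, pachytene, round spermatid, myoid and macrophage markers were higher in knockdown replicate 1. In WT 6 of the 9 members were higher in replicate 1.

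The scaling shifts all genes together. The median log2 fold change over all genes tested was -0.12, and it was 0.31 with library totals only and -0.70 with meiotic-gene scaling. Clgn, Calr3 and Pdilt lay below 0 and Calr, Pdia4, Pdia6, P4hb and Canx above 0 under each of these, with Canx at 0.08 under the last.

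**Figure D2:**
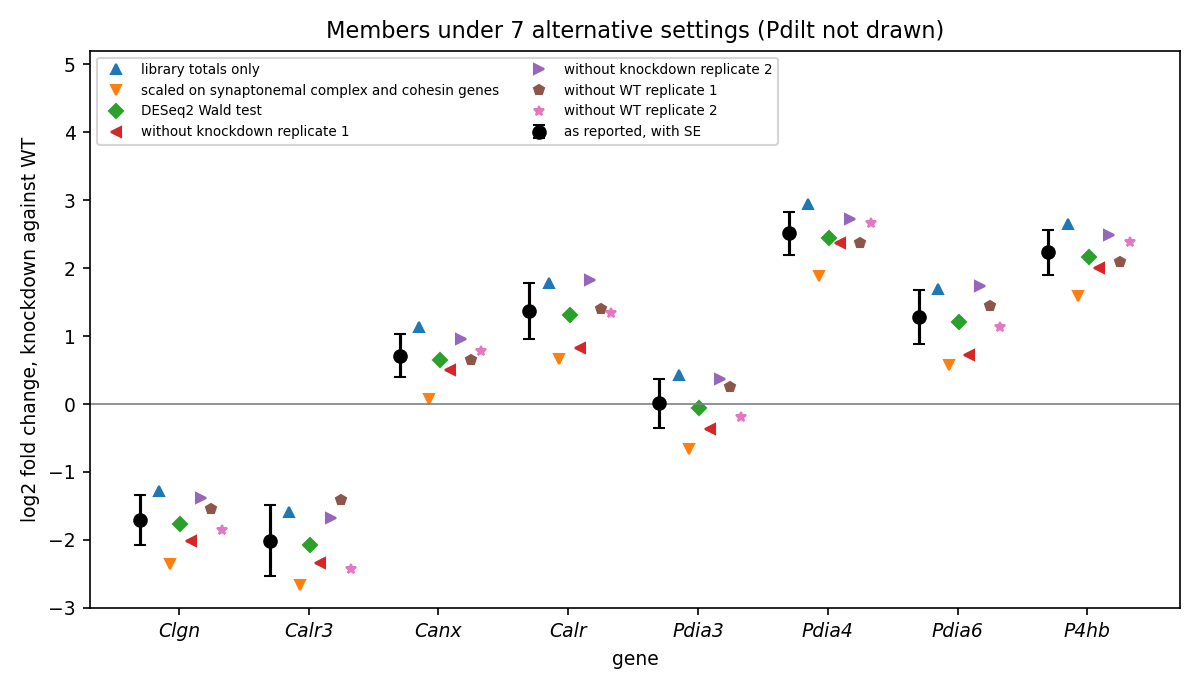
Log2 fold changes of 8 members (knockdown against WT) as reported, with SE bars, and under 7 alternative settings drawn as coloured symbols. Clgn and Calr3 stay below 0 and Pdia4 and P4hb above 1.5 in each setting, whereas Pdia3 lies on both sides of 0.

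Ratios within a library do not depend on that scaling, and they set each testis form against its somatic relative per kilobase of transcript. WT libraries held 6.79 and 5.02 Clgn transcripts per Canx transcript and knockdown libraries 1.16 and 1.02, a fall of 2.43 in the mean log2 ratio (SD 0.31 in WT and 0.14 in the knockdown, n = 2 each). There were 29.4 and 56.8 Calr transcripts for 1 of Calr3 in WT and 435 and 346 in the knockdown, and the mean log2 ratio of Calr3 to Calr fell by 3.25 (SD 0.67 and 0.23). Pdilt was near parity with P4hb in WT, with ratios of 1.12 and 0.58, and on group sums with the floor of 3 counts the ratio was at least 7580-fold lower in the knockdown (2853-fold without knockdown replicate 1 and 4727-fold without replicate 2). Against Pdia3 it was at least 1602-fold lower (537-fold and 1065-fold). For each of the 3 pairs the groups did not overlap, and an exact two-sided permutation test of 2 against 2 gave p = 0.333, the smallest it can give.

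**Figure D3:**
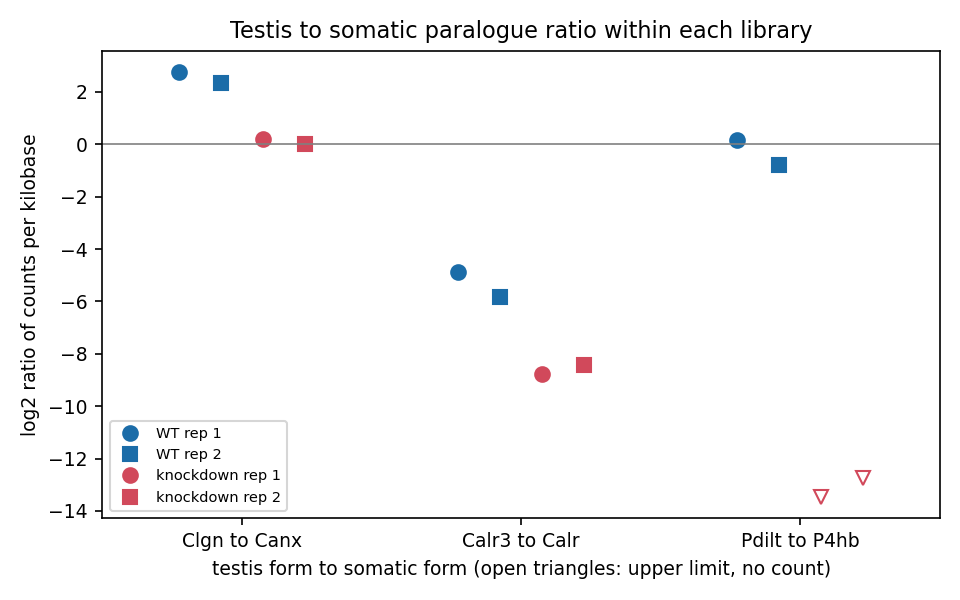
Log2 ratio of counts per kilobase of a testis form to its somatic relative, 1 symbol per library. Open triangles are upper limits for Pdilt with 3 counts shared equally by the knockdown libraries, and all 3 pairs lie lower in both knockdown libraries than in both WT libraries.

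The order of the members by level per kilobase changed as well. In WT it ran Clgn (463 and 376 CPM per kilobase), Calr (344 and 330.02), Pdia3 (207 and 152), Pdia6 (137 and 111), Canx (68.2 and 74.8), P4hb (26.9 and 32.9), Pdilt (30.1 and 19.1), Pdia4 (9.84 and 12.01) and Calr3 (11.7 and 5.81). Neighbours in that order did not overlap between the 2 libraries, except for P4hb with Pdilt and Pdia4 with Calr3. In the knockdown Calr led (1175 and 569), ahead of Pdia6 (409 and 195), Pdia3 (229 and 132), P4hb (166 and 115), Clgn (159 and 98.6) and Canx (137 and 97.1). From Pdia6 to Canx neighbours in that order overlapped, while Pdia4 (71.0 and 53.8) and Calr3 (2.70 and 1.64) stood apart below Canx. Ranked by the mean of each group's 2 libraries, Calr went from rank 171 to rank 7 among 27466 genes with a transcript length, and Clgn from 117 to 356. Of the summed level per kilobase of all 9 members, the testis forms made up 38.9% and 36.0% in WT and 6.88% and 7.95% in the knockdown. Clgn alone gave 52.2% and 47.8% of the summed lectin level (Clgn, Canx, Calr and Calr3) in WT and 10.8% and 12.9% in the knockdown, where Calr gave 79.7% and 74.2%.

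Genes whose 4 values ran most like a member's were found by the distance between log2(CPM + 0.5) values centred on each gene's mean. The candidates were 11647 other genes with a mean of at least 5 CPM. Genes with a predicted or clone name were left out, so a nearer one among them would not be listed. For Clgn the nearest were Cdpf1 (distance 0.0433), Birc5 (0.0625) and Tspan13 (0.0695), and for Calr3 they were Frey1 (0.163), Acyp2 (0.171) and Got1l1 (0.180). Pdilt was nearest to Zp3r (0.0833), Spem2 (0.109) and Ddi1 (0.127), of which Zp3r and Ddi1 also had no count in the knockdown. Canx ran with Exosc7 (0.0244), Rcan1 (0.0458) and Tex19.2 (0.0618), and Calr with Alyref (0.0568), Ssr2 (0.0592) and Rpl10a (0.0967). With 4 libraries such a distance mostly reflects the group difference and the split between replicates.

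The wider disulfide machinery was read from a list of other isomerases and oxidases. Of 21 tested genes 11 were higher, 2 lower and 8 not past the threshold, with a median log2 fold change of 0.86 against -0.12 over all genes. Among all genes tested 27.4% were higher and 33.5% lower. The higher count was 6 without knockdown replicate 1 and 7 without WT replicate 1 or without WT replicate 2, and the lower count was 1 without WT replicate 1, WT replicate 2 or knockdown replicate 2. Pdia5, a further isomerase, had 3.16 and 5.66 CPM in WT and 53.9 and 57.1 CPM in the knockdown (log2 fold change 3.66, SE 0.42). Gpx7, an ER peroxidase, had 0.298 and 0.0694 CPM in WT, which is 10 and 2 counts, and 4.99 and 2.91 CPM in the knockdown. Gpx7 passed the low-count filter through its knockdown counts alone, so it could only come out higher. The ER oxidases that recharge the isomerases parted: Ero1b fell from 316 and 299 CPM to 109 and 99.6 CPM, whereas Ero1a rose from 13.8 and 17.2 CPM to 51.0 and 46.7 CPM, a call lost with meiotic-gene scaling (adjusted p = 0.105). Erp29 was the other gene that fell (log2 fold change -0.80, SE 0.30), a call lost with library totals only, without the low-count filter and without WT replicate 1, WT replicate 2 or knockdown replicate 2 (adjusted p from 0.0606 to 0.273). Under meiotic-gene scaling this list held 4 higher and 4 lower genes.

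In the list of other calnexin cycle genes and ER lectins 7 of 16 were higher, 1 lower and 8 not past, with a median of 0.68. The shares over all genes tested were 27.4% higher and 33.5% lower. Uggt1, the sensor that returns unfolded glycoproteins to the cycle, rose from 20.5 and 31.2 CPM to 109 and 147 CPM, while its relative Uggt2 had 97.8 and 109.6 CPM in WT and 73.3 and 60.3 CPM in the knockdown and did not pass, though it did with meiotic-gene scaling and with the replicate block (adjusted p = 0.0222 and 0.0262). Lman1, a cargo lectin for export, and Edem1, which helps send misfolded glycoproteins to degradation, both rose by 2.16 (SE 0.34 and 0.35). Man1b1, a mannosidase, fell from 278 CPM in both WT libraries to 82.5 and 90.7 CPM. With library totals only 12 genes were higher, with meiotic-gene scaling 3 were, and without WT replicate 1 the number was 4.

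Among ER HSP70 and HSP90 proteins with their partners 6 of 20 were higher, 2 lower and 12 not past, against 27.4% higher and 33.5% lower among all genes tested. The median was 0.23, but -0.37 with meiotic-gene scaling. The ER HSP70 gene Hspa5 rose from 506 and 378 CPM to 1610.4 and 776 CPM (log2 fold change 1.43, SE 0.41), a call lost without WT replicate 2 (adjusted p = 0.114) and with meiotic-gene scaling (0.0889). Hsp90b1, the ER HSP90, did not pass, with 1128 and 904 CPM in WT and 1464 and 865 CPM in the knockdown. Fkbp9, Fkbp14 and Ppib, which are prolyl isomerases, rose by 3.35 (SE 0.50), 2.46 (SE 0.40) and 2.34 (SE 0.37). Sil1, a nucleotide exchange factor of Hspa5, fell by 1.55 (SE 0.31), with 184 and 162 CPM in WT and 70.2 and 47.6 CPM in the knockdown. Sdf2l1 fell by 1.43 (SE 0.36).

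Of 12 genes of the oligosaccharyltransferase, which attaches the sugars that the lectins read, 2 were higher, 2 lower and 8 not past. Of all genes tested 27.4% were higher and 33.5% lower. The list median was 0.06, but -0.59 with meiotic-gene scaling and -0.22 without knockdown replicate 1. Without WT replicate 1 the list held 1 higher and 1 lower gene. The catalytic subunit gene Stt3b fell from 976 and 1009 CPM to 265 and 264 CPM, while Stt3a had 109 and 128 CPM in WT and 160.2 and 139.8 CPM in the knockdown and did not pass, except with library totals only (adjusted p = 0.0302). Ddost, a subunit of the core complex, rose by 1.30 (SE 0.33), a call lost without WT replicate 1 (adjusted p = 0.0852) and with meiotic-gene scaling (0.160). Tusc3 and Magt1 encode alternative oxidoreductase subunits of the Stt3b complex and moved in opposite directions. Tusc3 fell by 1.13 (SE 0.32), a call lost with library totals only (adjusted p = 0.0568) and without WT replicate 1 (0.0611), and the X-linked Magt1 rose from 1.07 and 2.71 CPM to 14.6 and 24.3 CPM.

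The unfolded protein response and ER-associated degradation list had 9 of 20 genes higher, 5 lower and 6 not past (median 0.68), where 27.4% of all genes tested were higher and 33.5% lower. With meiotic-gene scaling 4 were higher and 7 lower (median 0.07). Trib3, among the 9 higher genes, had 4 and 6 counts in WT. It passed the low-count filter through its knockdown counts alone, so it could only come out higher. Higher genes included the stress sensor kinase gene Eif2ak3 (1.28 and 3.16 CPM, then 14.6 and 28.5 CPM), the factor gene Xbp1 (log2 fold change 1.63, SE 0.37, not past with meiotic-gene scaling) and Ppp1r15a, a phosphatase subunit that restores translation (4.46, SE 0.42). Lower genes included the stress factor gene Ddit3, from 122 and 85.9 CPM to 42.6 and 27.3 CPM, and Selenos, Ube2j1 and Herpud1 of the degradation pathway. Without WT replicate 1 these 3 lost their calls (adjusted p = 0.0719 for Selenos, 0.0863 for Ube2j1 and 0.190 for Herpud1), which left 2 lower genes in the list. Ube2j1 and Herpud1 also lost them with library totals only, and Herpud1 did so without any 1 of the 4 libraries (adjusted p from 0.0526 to 0.190). A further pair of relatives parted as well: Sel1l2 fell from 81.9 and 49.8 CPM to 1.42 and 1.67 CPM (log2 fold change -5.41, SE 0.44), whereas Sel1l, with 81.9 and 133 CPM in WT and 107 and 148 CPM in the knockdown, did not pass.

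**Figure D4:**
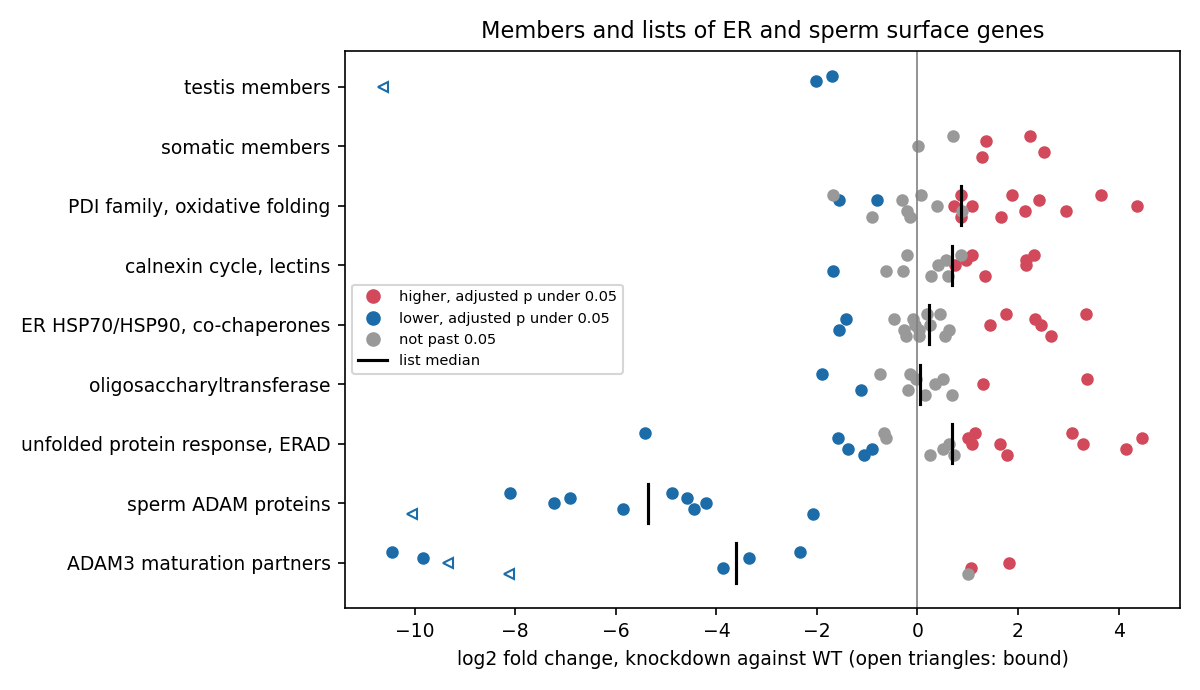
Log2 fold changes (knockdown against WT) of the members and of the genes in 7 lists, 1 point per gene, coloured by call, with black bars at list medians and open triangles at bounds for genes without a count in the knockdown. The 3 testis members and all 10 sperm ADAM genes lie to the left of 0, and the ER lists spread over both sides.

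All 10 tested genes of the sperm ADAM list fell, with a median log2 fold change of -5.37, where 33.5% of all genes tested were lower. Adam24 passed the low-count filter through its WT counts alone, and Adam6a and Adam6b had no count in any library. Adam3, the protein whose maturation needs all 3 testis forms, went from 1233 and 1148 CPM to 11.4 and 8.40 CPM. It is also in the list of pachytene markers. Of the calmegin-dependent pair, Adam1a had 59.1 and 42.2 CPM in WT and 2.45 and 3.00 CPM in the knockdown. Adam2 had 953 and 794 CPM in WT and 237 and 177 CPM in the knockdown. Adam1b (log2 fold change -8.10, SE 0.44) and Adam18 (-7.23, SE 0.46) fell as well, and Adam24, without a count in the knockdown, was at least 1062-fold lower (495-fold without knockdown replicate 1 and 567-fold without replicate 2). ADAM genes include close copies, so their counts are less certain. Clgn, at -1.70, fell less than the -2.08 (SE 0.33) of Adam2, the smallest change in the list, but the difference between them was not tested.

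In the list of other genes tied to ADAM3 at the sperm surface 7 of 10 were lower, 2 higher and 1 not past (median -3.60). Over all genes tested 33.5% were lower and 27.4% higher. Prss37 and Rnase10 passed the low-count filter through their WT counts alone. Cmtm2a had 987 and 643 CPM in WT and 1.14 and 0.630 CPM in the knockdown, and Cmtm2b had 454 and 343 CPM against 0.317 and 0.242 CPM. Prss37, a protease-like protein, had no count in the knockdown and was at least 647-fold lower (302-fold without knockdown replicate 1 and 345-fold without replicate 2). Against them, Tex101, a surface protein of germ cells with a lipid anchor, rose from 326 and 294 CPM to 1567 and 636 CPM, and Tpst2, which adds sulfate to tyrosines, rose by 1.06 (SE 0.39), a call lost without WT replicate 1, knockdown replicate 1 or knockdown replicate 2 and with meiotic-gene scaling (adjusted p from 0.0850 to 0.546). Ly6k, a partner of Tex101, had 135 and 133 CPM in WT and 388 and 154 CPM in the knockdown and did not pass (adjusted p = 0.0578). It passed as higher with library totals only, without the low-count filter, with the replicate block and without knockdown replicate 2 (adjusted p from 0.00206 to 0.0131). List medians were the same with genes lacking a knockdown count set at their bounds.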

How the data were processed

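The authors deposited raw read counts per gene for the 4 libraries, 50763 genes by symbol, and column names identify the libraries. The tools in the submitters' processing notes are featureCounts 1.5.3, HISAT2 2.2.1, DESeq2 1.46.0 and Trim Galore 0.6.10, with build mm39. Neither the annotation nor the strand setting nor the handling of multi-mapping reads is stated there. Library totals ran from 33287428 to 42479164.

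The test was edgeR 4.0.16 under R 4.3.3 (filterByExpr with the groups, 23594 of 36809 genes with a count kept, TMM, quasi-likelihood F test of knockdown against WT, Benjamini-Hochberg over all genes tested, threshold 0.05). SEs are approximate: the log2 fold change over the square root of F. The biological coefficient of variation was 0.356. A group without a count was bounded with 3 counts over the group, which covers counting error only. Transcript lengths are those of the longest coding GENCODE M21 transcript per symbol. The script was tested on simulated data with far fewer changed genes than here, so that test does not cover the choice of scaling.

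Members and lists were chosen with earlier results of these data known. Named genes were all members, Hsf5, per list up to 3 called genes with the smallest p and up to 3 called against the list's median, and the 3 nearest patterns. Stt3a, Ero1a, Uggt2, Hspa5, Hsp90b1, Sel1l, Xbp1, Trib3, Ube2j1, Herpud1, Adam1a, Adam2, Adam24 and Ly6k were named after their values were seen, as were the promoter motifs. Alternatives were DESeq2 size factors, library totals only, scaling on synaptonemal complex and cohesin genes (meiotic-gene scaling), the Wald test of DESeq2 1.42.0, a replicate block, no filter, a minimum mean of 1 CPM and leaving out each library.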

Additional observations from a re-analysis of the deposited data

How the results depend on the processing

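The 11 alternative fits left the calls of Clgn, Pdilt, Pdia4 and P4hb in place. Canx came past the threshold with library totals only (1.14), without the low-count filter (0.75) and with the replicate block (0.69), and it ranged from 0.51 to 0.95 when each library was left out. Calr did not pass with meiotic-gene scaling (0.67) and ranged from 0.82 to 1.82 with a library left out, Calr3 from -2.43 to -1.42, and Pdia6 from 0.72 to 1.74, with 0.57 under that scaling. Pdia3 turned negative with DESeq2 size factors in edgeR and in the DESeq2 Wald test (-0.055 in each), that scaling (-0.66), a mean of at least 1 CPM (-0.052) and the replicate block (-0.028), and ranged from -0.37 to 0.37 with a library left out.

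Meiotic-gene scaling gave 3733 higher genes, 2 higher somatic members, and higher list genes numbering 4 (isomerases), 3 (calnexin cycle), 1 (oligosaccharyltransferase), 4 (stress response) and 1 (ADAM3 partners), with 4 lower isomerases and 2 lower calnexin cycle genes. Library totals only gave 12 higher calnexin cycle genes, 4 higher and 1 lower oligosaccharyltransferase genes, 1 lower isomerase and 3 lower stress response genes. With a library left out, higher somatic members ranged from 2 (without WT replicate 2) to 5, higher isomerases from 6 to 9, higher calnexin cycle genes from 4 to 7, higher oligosaccharyltransferase genes from 1 to 3, higher ADAM3 partners from 1 to 2, lower isomerases from 1 to 3, lower oligosaccharyltransferase genes from 1 to 3, and lower stress response genes from 2 to 4. The log2 bound of Pdilt was -12.89 against P4hb, and from -13.29 to -11.48 with a library left out. Against Pdia3 it was -10.65, and with a library left out that ratio was at least 537-fold to 1690-fold lower. Among genes not past the threshold, meiotic-gene scaling turned Stt3a (-0.25), Hsp90b1 (-0.47) and Sel1l (-0.26) negative. With a library left out Hsp90b1 ranged from -0.16 to 0.55 and Sel1l from -0.057 to 0.64. With a library left out the lone library of its group is assumed to vary like the other group. The causes were not tested.

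Replicate numbers are not tied to a shared animal or day, and with 2 pairs the replicates' deviations correlated across genes at r = 0.32. The replicate block gave 7016 higher and 8351 lower genes and 2 lower calnexin cycle genes. Counts were deep for most members, but Calr3 had 120 to 696 counts per library.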
